A study of Mus musculus with 7 samples.

Results

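The Slc30a genes encode the ZnT proteins, and their chromatin in mouse islet cells was described from 7 ATAC-Seq peak lists. All 10 family members named for this purpose, Slc30a1 to Slc30a10, were found among the 21938 protein-coding genes of the annotation. Every distinct peak interval that overlapped the body of a member or the 20 kb on each side of it was taken. This gave 380 of the 1190565 peak intervals of the 7 lists. Peaks that touched between libraries were merged into 231 regions, and 45 of these were called in at least 2 libraries.

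ZnT proteins move zinc out of the cytosol, either across the plasma membrane or into organelles and vesicles, whereas the Slc39a (ZIP) importers bring zinc into the cytosol. Islet endocrine cells hold much zinc, since insulin is stored with zinc in the dense-core granules of beta cells, and ZnT8, the product of Slc30a8, loads those granules. ATAC-Seq uses the Tn5 transposase to tag DNA where chromatin is open, so a peak marks an accessible stretch and gives no level of the transcript.

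Islets came from mice that carried mIns1-H2b-mCherry and Rosa-LSL-YFP together with either Gcg-Cre or Sst-Cre. The mCherry reporter is driven by an Ins1 promoter and marks beta cells, and the Cre lines switch on YFP in cells with a history of Gcg or Sst expression, which were sorted as alpha and delta cells. All mice of every group thus carried the reporters, animals were pooled by sex before sorting, the status is given as healthy, and age and strain background are not given in the labels. There were 2 alpha, 3 beta, and 2 delta libraries, labelled as biological replicates, with no treatment.

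The lists held between 75860 and 518503 peaks, and between 25903 and 52057 of them reached a -log10 q of 2. Beta 1 stood apart with the longest list, of which 5.0% of peaks reached that q. Peaks are therefore given by their rank in their own list, where 1 is the lowest p, and the 50000 of lowest p were used where numbers of peaks were compared. The file names of all 3 beta lists carry alpha or delta, not beta, and the labels were followed. The methods state that the cell types were taken from the same animals, so beta libraries may share animals with alpha or delta libraries, and which do so is not given in the sources used here. By the numbering of the authors' supplement, alpha 1, beta 2, and delta 1 were female pools. Alpha 2, beta 1, beta 3, and delta 2 were male pools. The tests below treat the 7 libraries as independent. With peaks of a -log10 q of at least 2, all 7 alpha marker genes had a TSS peak (at most 1 kb from the 5′ end) in both alpha libraries, 2 in each beta library, and 6 and 5 in the delta libraries. Of the 5 delta markers, 4 had such a peak in each alpha and delta library, 1 in beta 1, and none in beta 2 and beta 3. The 7 beta markers did not set the beta libraries apart, with 3, 2, and 4 in beta, 4 and 3 in alpha, and 5 and 4 in delta libraries. The Sst TSS reached that q in beta 1 alone, against the label, at rank 22879, and was called below it in delta 1 at rank 130978 and delta 2 at rank 64898. The Ins2 TSS reached it in no library and was called below it in beta 3, at rank 68729. Acinar, duct, endothelial, and immune markers had no such peak, apart from 1 endothelial gene in delta 1.

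The members differed in whether their 5′ end was open, and 4 RefSeq promoters (GRCm38.p6, 250 bases before to 50 after the start, 5′ to 3′ on the strand of the gene) show this range. They are those of Slc30a1 and Slc30a4, with peaks in all 7 libraries, Slc30a2, with none, and Slc30a10, with peaks in 4. Capitals mark matches to the core of the metal response element, TGCACNC or TGCGCNC on either strand, which is bound by the zinc-sensing factor MTF1. The promoters lie at chr1:191906531-191906830 (plus strand), chr2:122702614-122702913 (minus strand), chr4:134343216-134343515 (plus strand), and chr1:185454598-185454897 (plus strand). The RefSeq start of Slc30a2, at 134343466, lies after the 5′ end used elsewhere here, at 134343181. Its printed stretch thus lies within the annotated gene, and both of its marked matches lie in exon 1. The bases before that 5′ end were not searched.
Slc30a1: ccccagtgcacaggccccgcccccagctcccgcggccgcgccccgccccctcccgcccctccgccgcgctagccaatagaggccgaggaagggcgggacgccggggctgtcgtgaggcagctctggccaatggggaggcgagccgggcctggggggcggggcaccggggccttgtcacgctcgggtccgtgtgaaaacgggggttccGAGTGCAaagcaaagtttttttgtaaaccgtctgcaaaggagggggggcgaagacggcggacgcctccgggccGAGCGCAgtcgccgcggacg
Slc30a4: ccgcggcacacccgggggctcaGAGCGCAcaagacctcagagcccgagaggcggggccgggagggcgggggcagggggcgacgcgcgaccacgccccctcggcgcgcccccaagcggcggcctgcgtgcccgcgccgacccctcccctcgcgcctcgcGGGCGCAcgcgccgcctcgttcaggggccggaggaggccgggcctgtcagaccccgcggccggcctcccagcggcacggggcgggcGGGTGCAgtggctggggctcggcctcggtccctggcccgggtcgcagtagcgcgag
Slc30a2: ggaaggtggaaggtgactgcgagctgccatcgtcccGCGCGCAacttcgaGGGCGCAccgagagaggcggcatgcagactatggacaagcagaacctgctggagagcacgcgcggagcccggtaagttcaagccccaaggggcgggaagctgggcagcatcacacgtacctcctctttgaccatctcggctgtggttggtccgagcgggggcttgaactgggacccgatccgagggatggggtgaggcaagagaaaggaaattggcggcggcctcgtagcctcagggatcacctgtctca
Slc30a10: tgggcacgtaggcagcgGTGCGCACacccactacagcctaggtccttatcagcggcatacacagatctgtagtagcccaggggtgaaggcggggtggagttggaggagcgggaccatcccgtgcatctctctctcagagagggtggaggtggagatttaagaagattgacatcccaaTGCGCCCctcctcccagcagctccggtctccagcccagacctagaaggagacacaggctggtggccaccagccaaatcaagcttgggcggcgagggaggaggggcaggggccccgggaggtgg

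RefSeq entries were matched for 9 of the 10 members, with 10 promoters since Slc30a3 has 2, and Slc30a8 has no entry. The core was found in 6 of these 10 promoters and in 29.8% of 20150 promoters of protein-coding genes. It stood 3 times in Slc30a4 and Slc30a10, where 2 of the matches overlap on opposite strands, and 2 times in Slc30a1 and Slc30a2. In Slc30a5 and in the outer Slc30a3 promoter it stood once. At least 3 matches were found in 2.49% of all promoters. Members with a peak in every library and members with none both held it. None of the 10 held TAATTA (homeodomain), TGTTTAC (forkhead), CAGATG (E-box), TGCTGAC (Maf), or GTTGCCA (RFX), which were searched on both strands and found in between 2.96% and 14.3% of all promoters.

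Base composition differed among the same promoters. A promoter was called CpG-rich at a GC content of at least 50% and a ratio of observed to expected CpG of at least 0.6. All 6 members open in every library were CpG-rich, with a GC content between 55.7% in Slc30a6 and 81.7% in Slc30a4. Among all RefSeq promoters, 72.0% of the CpG-rich and 19.0% of the CpG-poor had a peak within 1 kb in all 7 libraries. Slc30a10 was the CpG-poor member, with a GC content of 62.7% but a CpG ratio of 0.414. The other member promoters were all CpG-rich, against 46.8% of all promoters. Motif shares were not taken among CpG-rich promoters alone, so the part of base composition in the motif counts was not tested. Slc30a2 had a GC content of 63.0% and a CpG ratio of 0.791, yet no peak lay within 1 kb of its RefSeq start in any library, as for 1.31% of CpG-rich promoters.

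A TSS peak was present in all 7 libraries at Slc30a1, Slc30a4, Slc30a5, Slc30a6, Slc30a7, and Slc30a9. These 6 of 10 members compare with 41.5% of all protein-coding genes. With peaks of a -log10 q of at least 2 alone, the same 6 genes kept a peak in every library, against 31.1% of all genes. Slc30a2 and Slc30a3 had no TSS peak in any library, as did 17.3% of all genes. Slc30a8 had a TSS peak in 6 libraries, of which 3 reached that q, and Slc30a10 in 4, of which 1 did. The plot of TSS ranks shows the 6 widely open genes near the top and the other 4 apart from them.

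**Figure D1:**
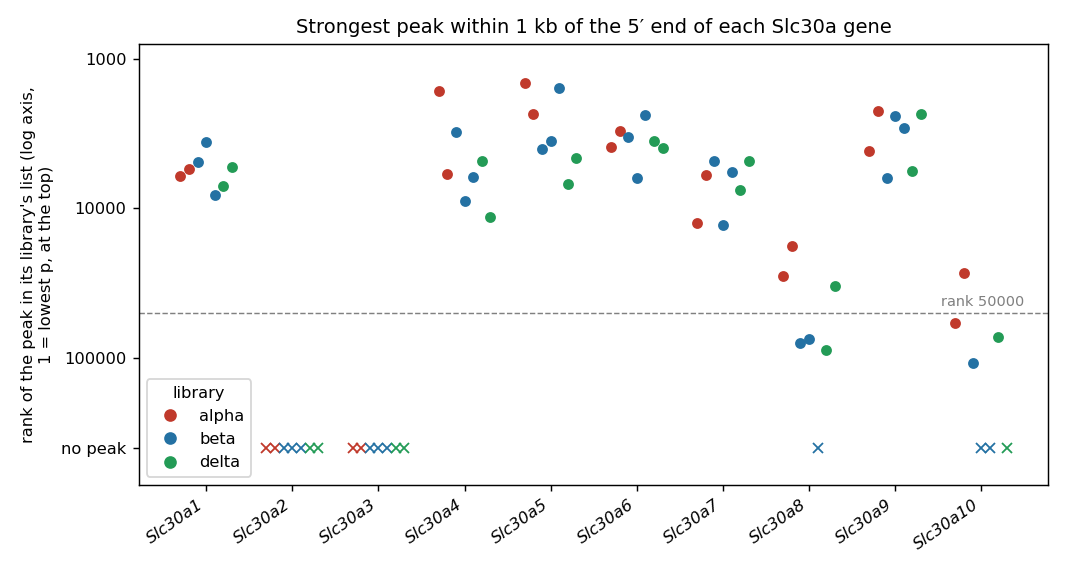
Rank of the strongest TSS peak of each Slc30a gene in its library's list (log axis, 1 at the top), with 1 dot per library coloured by cell type and crosses for no peak. Slc30a1, Slc30a4, Slc30a5, Slc30a6, Slc30a7, and Slc30a9 stay above the dashed line at rank 50000 in all 7 libraries, and Slc30a8 does so in both alpha libraries and delta 2.

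To ask whether TSS accessibility differed between the cell types, log10 ranks were compared by an exact permutation test over the 210 assignments of the 7 libraries, without direction, for all 14036 genes with a TSS peak among the 50000 of lowest p in at least 1 library. The smallest p that this design allows is 0.00952. An unadjusted p of at most 0.05 was reached by 9.70% of genes and by 1 of the 8 members tested, Slc30a8. After Benjamini-Hochberg adjustment no gene passed, with 1361 genes at an unadjusted p of at most 0.05. Slc30a2 and Slc30a3 had no TSS peak to test.

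Slc30a8 encodes the granule transporter ZnT8 and lies at chr15:52295553-52335798 on the plus strand, with 8 exons. Its TSS peak ranked 28223 in alpha 1, 17956 in alpha 2, 79075 in beta 1, 74350 in beta 2, 87855 in delta 1, and 32863 in delta 2, and beta 3 had none. Both alpha libraries thus stood ahead of every other library, as at 11.5% of the genes tested. The mean log10 rank was 4.35 ± 0.14 (SD, n = 2) in alpha and 4.61 ± 0.13 (n = 2) in delta cells. In these means, all 3 beta libraries and delta 1 were beyond rank 50000 and were set to the next rank beyond it, a log10 rank of 4.70. The exact permutation test gave p = 0.0381, with an adjusted p of 0.457, so the difference was not called. The p stayed at 0.0381 with peaks of a -log10 q of at least 2, a window of 3 kb, any transcript start, or ranks by fold enrichment. The p was 0.571 with ranks limited at 25000 and 0.143 with beta compared with alpha and delta together. Without beta 1 it was 0.2, but there the smallest p possible was 0.0667. Summits of the alpha peaks lay 14 and 53 bp before the 5′ end, with a fold enrichment of 5.19 and 7.14 over the local background of their library.

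The strongest peak of the Slc30a8 window was not at the promoter but in intron 2. The region chr15:52315630-52316686, between 20077 and 21133 bp after the 5′ end, was called in all 7 libraries. It ranked 3471 and 6062 in alpha, 856, 2268, and 1176 in beta, and 3271 and 2410 in delta libraries. Each beta library was ahead of every alpha and delta library, as at 2.87% of 88739 regions tested in the same way. This test of regions was added after the values had been seen, and it gave p = 0.105 by exact permutation, with an adjusted p of 0.633. Fold enrichment overlapped between the cell types, at 13.5 and 11.6 in alpha, 13.7, 10.6, and 17.7 in beta, and 15.2 and 15.4 in delta libraries.

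All 7 summits of the intron 2 region fell within 67 bp, from position 52316401 to 52316468. The -log10 q was 28.7 and 23.8 in alpha, 27.6, 17.4, and 43.4 in beta, and 38.7 and 33.7 in delta libraries. The region stayed within the 10000 strongest peaks of every library, as did 0.698% of 97707 regions over 3 kb from any annotated transcript start. In the map of the Slc30a8 window it is the tallest bar in each row, while the bar at the 5′ end is lower or missing. The 300 bases around its median summit had a GC content of 44.0% and held the Maf letters TGCTGAC once and none of the other motifs. Of 93014 such windows in regions over 3 kb from a start, 7.02% held those letters.

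**Figure D2:**
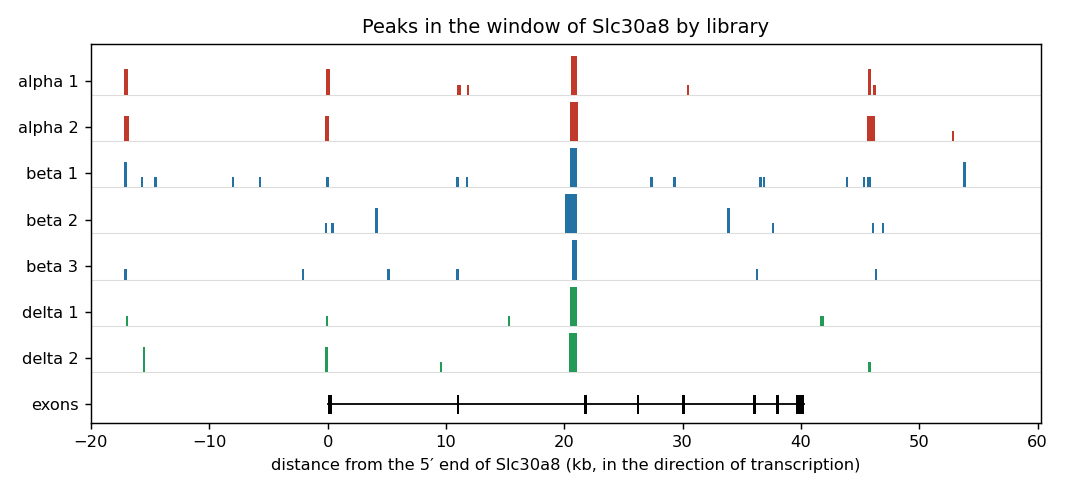
Peaks of the 7 libraries in the Slc30a8 window by distance from the 5′ end (kb), with bar height in 3 steps, tall for ranks to 10000, middle for ranks to 50000, and low for weaker peaks, and exons in black. Very narrow peaks and exons are widened to be visible. The region in intron 2, near 20.6 kb, is tall in all 7 libraries, and the 5′ end is called in all but beta 3.

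Further regions of the Slc30a8 window were weaker. A region 17 kb before the 5′ end (chr15:52278320-52278742) ranked 32756 and 29237 in alpha, 41611 in beta 1, 51538 in beta 3, and 141535 in delta 1. A region 46.0 kb after the 5′ end, beyond the gene (chr15:52341132-52341980), ranked 38507 and 28992 in alpha, 78116, 63895, and 81715 in beta, and 68064 in delta 2, and delta 1 had no peak. Both were strongest in the 2 alpha libraries, as was the promoter. Each of these 2 regions had an exact p of 0.0952 and an adjusted p of 0.602. The share of all regions with this order was not counted. A region at exon 2 (chr15:52306423-52306800) was called in alpha 1, beta 1, and beta 3 at ranks from 51539 to 471311. It was the region of this window that was open in beta (at least 2 replicates) and in no delta library. The regions chr15:52307236-52307499, in intron 2, and chr15:52279780-52280110, 15.6 kb upstream, were each called in 2 libraries, 1 of which was beta 1. The window held 4 and 4 of the 50000 strongest peaks in alpha, 3, 3, and 1 in beta, and 1 and 3 in delta libraries (exact permutation p = 0.295, adjusted p = 0.962). In beta 3, the peaks at ranks 51538 and 51539 had the same -log10 p, 3.91, as rank 50000. The peaks at rank 41611 in beta 1 (-log10 p of 3.7) and rank 46785 in delta 2 (4.34) also matched rank 50000 of their list. The beta 1, beta 3, and delta 2 counts thus depend on the order of ties.

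By length covered by these peaks, the window of Slc30a8 had 1508 and 2040 bp in alpha, 1007, 1412, and 436 bp in beta, and 589 and 1040 bp in delta libraries. Among 14103 other protein-coding genes with covered bases in every library, those whose covered length followed it most closely over the 7 libraries included Vegfc (Pearson r = 0.988), 1600014C10Rik (0.979), Lyrm4 (0.965), and Opn1sw (0.961). These r are descriptions over 7 libraries that share depth and list length across genes.

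Slc30a3, Slc30a2, and Slc30a4 encode other transporters of vesicles, ZnT3 in synaptic vesicles, ZnT2 in secretory vesicles such as those of the mammary gland, and ZnT4 in endosomes. Slc30a3 lies at chr5:31086106-31108237 on the minus strand. Its outermost annotated start had no peak, but the start of its main transcript, at position 31093615, lay in a region (chr5:31093416-31093968) called in alpha 1 at rank 82202, alpha 2 at rank 30909, and beta 1 at rank 53034. No delta library had a peak there. Its window held 3 and 1 of the 50000 strongest peaks in alpha libraries and none in the others (exact p = 0.0952, adjusted p = 0.845). The beta 1 peak at rank 53034 was tied in p and fold enrichment with peaks inside the 50000. Of the 5 regions in this window called in at least 2 libraries, 4 were called in alpha 1 and beta 1 alone. The strongest of those peaks was at exon 7, at rank 11768 in alpha 1 but 328040 in beta 1.

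Slc30a2 lies at chr4:134343181-134354484 on the plus strand. Just past its 3′ end, the region chr4:134354922-134355311 was called in both alpha libraries, at ranks 46713 and 46242, and in no other. Regions called in both alpha libraries alone made up 2.42% of the 133698 regions called in at least 2 libraries. A region near the start of the neighbour Extl1, 29.4 kb after the 5′ end of Slc30a2 (chr4:134372410-134372724), ranked 46714 and 34872 in alpha and 14402 in beta 1. The window held 3 and 2 of the 50000 strongest peaks in alpha, 1, 0, and 0 in beta, and none in delta libraries (exact p = 0.0952, adjusted p = 0.845). In the windows of Slc30a2 and Slc30a3, both alpha libraries had more such peaks than every other library, and the share of all genes with this order was not counted.

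Slc30a4 lies at chr2:122681233-122702663 on the minus strand, and its 5′ end is 616 bp from that of 4930417H01Rik on the other strand. Its TSS peak ranked 1652 and 5905 in alpha, 3114, 8875, and 6213 in beta, and 4841 and 11486 in delta libraries, and the cell types overlapped (exact p = 0.419, adjusted p = 0.828). A region 36.1 kb after the 5′ end (chr2:122666258-122666771) was called in all 7 libraries, from rank 12027 in alpha 1 to 79889 in beta 2. A region 16.8 kb before the 5′ end (chr2:122719139-122719717) was called in all but beta 3, at rank 22661 and 14737 in alpha, 68203 and 13729 in beta, and 8254 and 14635 in delta libraries. The region at exon 7 (chr2:122684811-122685249), at rank 68202 in beta 1 and 58198 in beta 3, was, of the 4 regions in this window called in at least 2 libraries, the only one called in a single cell type. The window held 3 and 3 of the 50000 strongest peaks in alpha, 2, 3, and 2 in beta, and 3 and 5 in delta libraries (exact p = 0.210, adjusted p = 0.870). Covered length was 1460 and 1747 bp in alpha, 851, 993, and 1064 bp in beta, and 1554 and 1813 bp in delta libraries (exact p = 0.019, adjusted p = 0.242). In this measure, 3668 of all 21938 genes reached an unadjusted p of at most 0.05.

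Slc30a5, Slc30a6, and Slc30a7 serve the early secretory pathway. ZnT5 and ZnT6 act as a heterodimer, and with ZnT7 they supply zinc to enzymes made in the Golgi apparatus. The TSS peak of Slc30a5 (chr13:100802648-100833427, minus strand) ranked 1455 and 2335 in alpha, 3987, 3551, and 1563 in beta, and 6910 and 4633 in delta libraries. The exact test gave p = 0.152, with an adjusted p of 0.599. That of Slc30a6 (chr17:74395608-74424221, plus strand) ranked 3913 and 3055 in alpha, 3345, 6240, and 2393 in beta, and 3559 and 3965 in delta libraries, with overlap of all cell types (exact p = 0.962, adjusted p = 1.0). The TSS peak of Slc30a7 (chr3:115938973-116007406, minus strand) is shared with Extl2, whose 5′ end is 56 bp away on the other strand. It ranked 12459 and 5990 in alpha, 4825, 12936, and 5694 in beta, and 7600 and 4801 in delta libraries, which also overlapped (exact p = 0.743, adjusted p = 0.95).

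Around Slc30a6, some regions were called in some cell types and not in others, and 2 stretches are printed that were picked for this pattern after the calls had been seen. No test of them passed after adjustment. The first is in intron 7, called in both delta libraries and no other, and the second is just beyond the 3′ end, called in both alpha and both delta libraries and in no beta library. Each is 300 bases around the median summit, from GRCm38.p6, plus strand, at chr17:74409833-74410132 and chr17:74424614-74424913. Capitals mark CAGATG or CATCTG (E-box, both strands) in both stretches and, near the start of the first, the Maf letters TGCTGAC on the minus strand.
Slc30a6 intron 7: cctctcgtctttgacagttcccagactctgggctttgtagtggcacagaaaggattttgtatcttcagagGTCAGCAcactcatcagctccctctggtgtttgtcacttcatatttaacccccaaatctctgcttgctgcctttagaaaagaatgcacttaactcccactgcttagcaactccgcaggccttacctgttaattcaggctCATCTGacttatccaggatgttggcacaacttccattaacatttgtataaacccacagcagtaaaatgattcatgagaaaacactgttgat
Slc30a6 beyond the 3′ end: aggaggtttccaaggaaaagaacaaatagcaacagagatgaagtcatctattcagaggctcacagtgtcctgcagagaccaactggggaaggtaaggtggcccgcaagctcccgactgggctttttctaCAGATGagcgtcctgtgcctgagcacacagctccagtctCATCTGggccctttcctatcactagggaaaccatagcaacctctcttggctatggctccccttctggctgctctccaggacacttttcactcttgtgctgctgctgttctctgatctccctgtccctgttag

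An E-box of these letters was found in 27.4% of such windows in regions over 3 kb from a start. The second stretch held it 2 times. The first held it once, but its region lies nearer to a start and is outside that set. The intron 7 region (chr17:74409758-74410287) ranked 31896 in delta 1 and 11636 in delta 2. An annotated start of a further Slc30a6 transcript lies within 1 kb of this region. Regions called in both delta libraries alone made up 2.06% of all those called in at least 2 libraries. The region beyond the 3′ end (chr17:74424433-74425014) ranked 24352 and 21608 in alpha and 23140 and 19556 in delta libraries. Regions called in these 4 libraries and in no beta library made up 1.43%. The exact test of regions gave p = 0.0952 for the first and p = 0.0190 for the second, each with an adjusted p of 0.602.

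A further region, 8.78 kb before the 5′ end of Slc30a6 (chr17:74386699-74386948), ranked 4168 in alpha 1, 27847 in alpha 2, and 232225 in beta 1, and no delta library had a peak there. Beyond the gene, the region 34.5 kb after the 5′ end was called in alpha 1 and both delta libraries at ranks from 25495 to 71899, and that at 42.3 kb in both alpha libraries at ranks 44305 and 100609. The Slc30a6 window held 5 and 4 of the 50000 strongest peaks in alpha, 3, 3, and 1 in beta, and 4 and 5 in delta libraries (exact p = 0.0857, adjusted p = 0.845). The covered length was 1532 and 1319 bp in alpha, 801, 699, and 322 bp in beta, and 1932 and 2134 bp in delta libraries. The exact test of this length gave p = 0.00952, the smallest the design allows, with an adjusted p of 0.239. In this measure, 3668 of all 21938 genes reached an unadjusted p of at most 0.05. Fewer peaks passed a -log10 q of 2 in beta (25903 to 38058) than in alpha and delta libraries (41683 to 52057). Per the authors' supplement, every beta library also had fewer unique mapped reads than either alpha library. The part of these differences in the lower beta values was not tested.

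**Figure D3:**
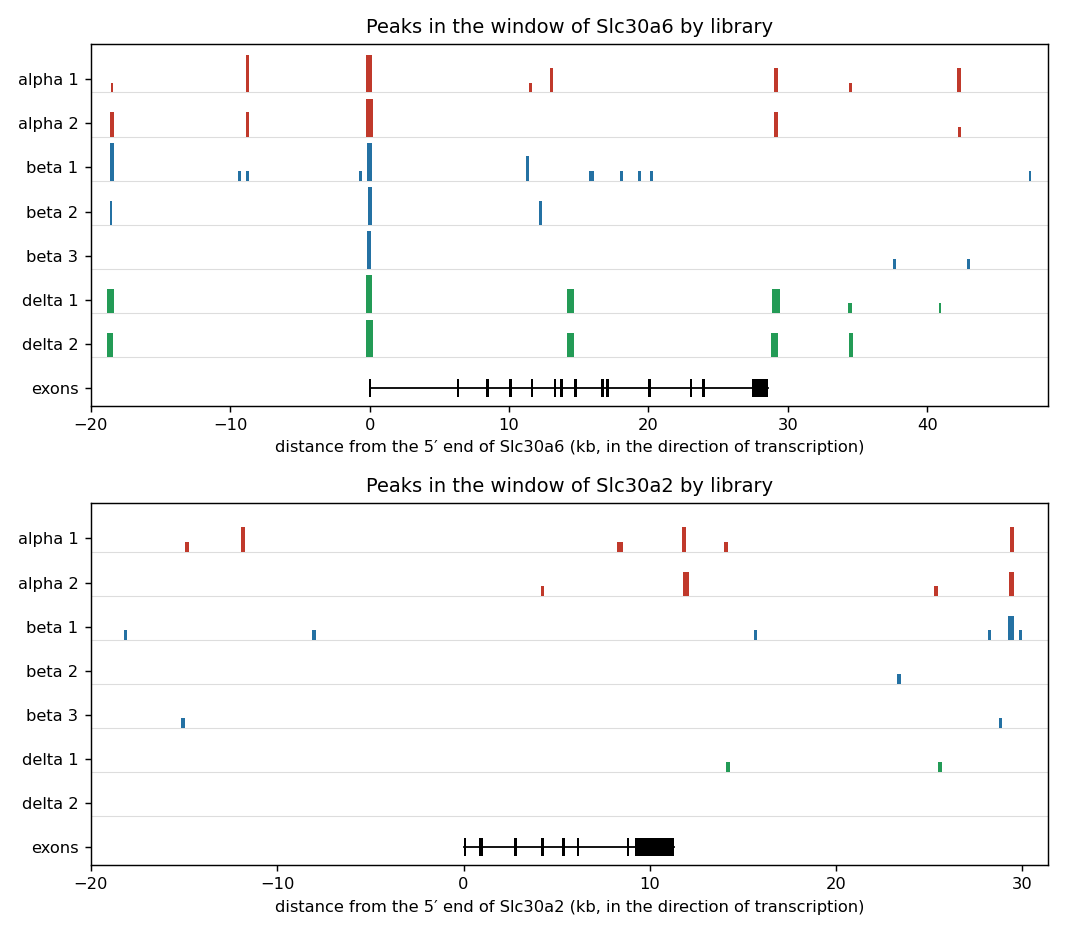
Peaks of the 7 libraries in the windows of Slc30a6 (top) and Slc30a2 (bottom) by distance from the 5′ end (kb), with bar height in 3 steps, tall for ranks to 10000, middle for ranks to 50000, and low for weaker peaks, and exons in black. Very narrow peaks and exons are widened to be visible. Slc30a6 has bars near 14.4 kb in the delta libraries alone and near 29.1 kb in alpha and delta libraries, and Slc30a2 has no bar at its 5′ end and a bar near 11.9 kb in the alpha libraries alone.

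In the Slc30a7 window, an inner region (chr3:115992745-115993841) near annotated alternative starts was called in all 7 libraries, from rank 4625 in alpha 2 to 18337 in beta 3. A region 18.6 kb upstream (chr3:116025748-116026235) was called in all but beta 2, from rank 6310 in beta 1 to 17360 in alpha 1. The region in intron 8 (chr3:115969159-115969537), at ranks 98204 and 103499 in the alpha libraries alone, was, of the regions in this window called in at least 2 libraries, the only one called in both alpha libraries and in no other. The Slc30a7 window held between 4 and 5 of the 50000 strongest peaks in every library (exact p = 1.0).

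In the Slc30a5 window, a region 11.4 kb upstream (chr13:100844626-100845038) ranked 9941 and 42771 in alpha and 9984 and 37565 in beta 1 and beta 2. Beta 3 and both delta libraries had no peak there (exact p = 0.457, adjusted p = 0.872). The other region of this window called in all 7 libraries was at the start of the neighbour Ccnb1. The window held 5 and 3 of the 50000 strongest peaks in alpha, 4, 3, and 3 in beta, and 2 and 2 in delta libraries (exact p = 0.152, adjusted p = 0.870).

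Slc30a1 and Slc30a10 encode transporters of the plasma membrane, ZnT1, the exporter of zinc whose gene is a known target of MTF1, and ZnT10, which exports manganese. The TSS peak of Slc30a1 (chr1:191906767-191913247, plus strand) ranked 6095 and 5459 in alpha, 4898, 3592, and 8205 in beta, and 7046 and 5311 in delta libraries. All cell types overlapped, with mean log10 ranks of 3.76 ± 0.03 (SD, n = 2), 3.72 ± 0.18 (n = 3), and 3.79 ± 0.09 (n = 2) in alpha, beta, and delta cells (exact p = 0.848, adjusted p = 1.0). Its summits lay between 93 and 153 bp before the 5′ end. The window held 1 or 2 of the 50000 strongest peaks in every library (exact p = 0.314, adjusted p = 0.964). Apart from the 5′ end, it held 1 region called in at least 2 libraries, 13.3 kb upstream, in alpha 1 and beta 1. The 5′ end of Slc30a1 is 760 bp from that of 1700034H15Rik on the other strand.

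The TSS peak of Slc30a10 (chr1:185454848-185468762, plus strand) ranked 27138 in alpha 2, with weaker calls in alpha 1, beta 1, and delta 1 and none in the other 3 libraries. The -log10 q was 4.34 in alpha 2 and 1.13, 0.0774, and 0.951 in alpha 1, beta 1, and delta 1 (exact p = 0.571, adjusted p = 0.85). No region of this window was open in any cell type, and it held 1 of the 50000 strongest peaks in each alpha library, 1, 0, and 2 in beta libraries, and none in delta libraries (exact p = 0.486, adjusted p = 1.0). At exon 4, a region (chr1:185465952-185466185) ranked 7543 in alpha 1 and 33121 in beta 1 and was absent from the other 5 libraries, alpha 2 among them.

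Slc30a9, a divergent member of the family, lies at chr5:67306955-67358443 on the plus strand. Its TSS peak ranked 4113 and 2250 in alpha, 6281, 2436, and 2907 in beta, and 5633 and 2344 in delta libraries, and the cell types overlapped (exact p = 0.905, adjusted p = 1.0). A region at exon 17 (chr5:67352459-67352693) ranked 18395 in beta 1 and 13888 in beta 2, with weaker calls in alpha 1 and both delta libraries at ranks from 70813 to 149833. A region in intron 1 (chr5:67311835-67312155) was called in beta 1 at rank 496280 and beta 2 at rank 16514, and in no alpha or delta library. The window held 2, 4, and 1 of the 50000 strongest peaks in beta libraries and 1 in every other (exact p = 0.238, adjusted p = 0.870).

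Across the family, no window count reached an unadjusted p of 0.05, whereas 5.37% of all 21938 protein-coding genes did, and no gene passed after adjustment. The plot of window counts shows which members had more peaks in 1 cell type. Alpha libraries had the most in Slc30a2, Slc30a3, and Slc30a8, and beta libraries the fewest in Slc30a6. The share of all genes with such an order was not counted.

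**Figure D4:**
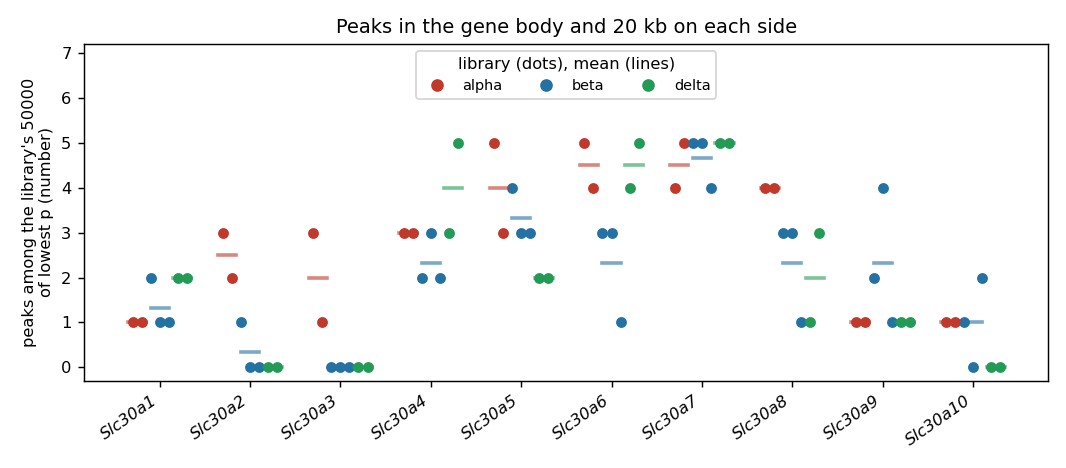
Number of the 50000 peaks of lowest p of each library that overlap the gene body or the 20 kb on each side, for the 10 members, with 1 dot per library and lines at the means of the 2 alpha, 3 beta, and 2 delta libraries. In Slc30a3 only the alpha libraries have any, 3 and 1, and in Slc30a6 the beta libraries, at 3, 3, and 1, lie below the others.

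Of the 45 regions called in at least 2 libraries, 11 were called in all 7, and the share among all such regions was 13.3%. The 11 comprised 7 at the 5′ ends of Slc30a1, Slc30a4, Slc30a5, Slc30a6, Slc30a7, with 2, and Slc30a9, and 1 at the start of Ccnb1. The inner start of Slc30a7, the region downstream of Slc30a4, and the intron 2 region of Slc30a8 made up the rest. Those within the 10000 strongest peaks of every library were the 5′ ends of Slc30a1, Slc30a5, Slc30a6, and Slc30a9 and the intron 2 region of Slc30a8. By position, the 45 regions included 9 at 5′ ends, 5 at inner starts of a member, and 4 at starts of other genes. The remaining 27 comprised 6 in introns, 4 in exons, and 17 outside the genes.

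A region was called open in a cell type if it was called in 2 or more of that cell type's libraries. Alpha cells had 25 open regions of the 45, beta cells 22, and delta cells 19, against 34.0%, 42.1%, and 33.6% of all regions called in at least 2 libraries. Without beta 1, the number open in beta was 12, and without alpha 2, where alpha 1 alone stood for alpha, the number open in alpha was 38. For alpha, 4 regions were open with no call in a beta library (5.41% of all regions), and 7 with no call in a delta library (5.38%). The first count was 1 without alpha 1 and 7 without beta 1, and the second was 4 without alpha 1 and 17 without alpha 2. For beta, 2 were open with no call in an alpha library (14.8%), and 4 with no call in a delta library (13.2%), and without beta 1 none of either kind was left. Without beta 2 or beta 3 these counts were 1 and 2, and without alpha 1 the first was 4. For delta, 1 was open with no call in an alpha library (5.13%), and 3 with no call in a beta library (4.85%). The first was 3 without alpha 1 and 0 without delta 2, and the second was 2 without delta 1. Of the 45, 13 were called in beta 1 and 1 other library alone, and the share among all regions was 32.2%. In the test of regions, 34 of the 45 had a peak among the 50000 of lowest p, and 2 reached an unadjusted p of 0.05, the region beyond Slc30a6 and the Slc30a8 promoter, against 6.89% of all regions tested. No region passed after adjustment, with 6114 regions at an unadjusted p of at most 0.05. In the heat map of all 45 regions, 7 of the 9 rows at 5′ ends and the row of the Slc30a8 intron 2 region are coloured throughout. The 5′ end row of Slc30a8 is white in beta 3, and that of Slc30a10 is coloured in 3 libraries.

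**Figure D5:**
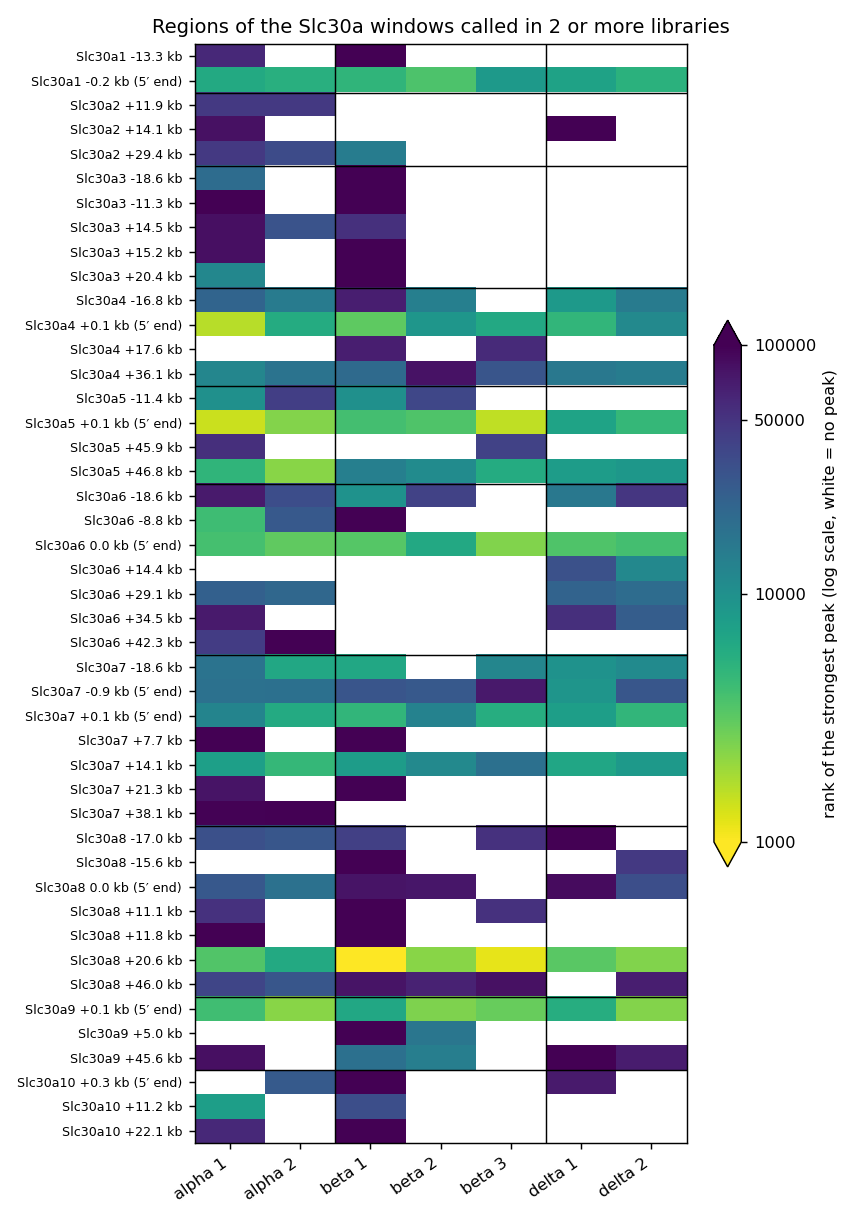
Rank of the strongest peak of each library (columns, grouped as alpha, beta, and delta) in the 45 regions called in at least 2 libraries (rows, named by member and distance of the middle from the 5′ end in kb), with yellow for the strongest ranks, dark for weak ones, and white for no peak. Of the rows, 11 are coloured in all 7 libraries, and the Slc30a8 row at 20.6 kb is yellow in beta 1 and beta 3.

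The genes that handle zinc beside the family were counted in the same way. The list held the importers Slc39a1 to Slc39a14, the zinc transporter Tmem163, the metallothioneins Mt1 to Mt4, which buffer zinc, and Mtf1. A TSS peak was present in all 7 libraries for 11 of these 20 genes, against 41.5% of all protein-coding genes, and in none for Slc39a10 and Mt4, against 17.3%. With a -log10 q of at least 2, 6 of the 20 had a peak in every library, against 31.1% of all genes, namely Slc39a1, Slc39a3, Slc39a6, Slc39a8, Mt1, and Mtf1. In TSS strength, none of the 15 genes tested reached an unadjusted p of 0.05, against 9.70% of all genes tested, and the lowest exact p was 0.105. In window counts none of the 20 did, against 5.37%, and the lowest exact p was 0.0952.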

How the data were processed

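The deposited lists were made by the authors. Per the labels and the methods, single-end reads were checked with FastQC, trimmed with Trimmomatic, and aligned to GRCm38 (mm10) by Bowtie 2, with the mitochondrial genome left out. Duplicates were then marked (Picard), blacklisted regions taken out, and peaks called per library by MACS2, which gave the deposited -log10 p, -log10 q, fold enrichment (a ratio to the local background of the library), and score. Shifting for the Tn5 offset and the MACS2 threshold are not given in the sources used here, and the lowest -log10 p of every list was 2.01. Reads were not used here, so limits of detection are unknown, and the test of read counts that the authors ran was not repeated. Depth per library is given in the authors' supplement. Every beta library kept had fewer unique mapped reads than either alpha library, and the lower delta count lay within the beta range. A further beta replicate with a low fraction of reads in peaks was removed by the authors. The part of depth in lower or absent beta calls was not tested.

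Repeated intervals were counted once. Ranks follow -log10 p, ties follow fold enrichment, and remaining ties follow chromosome name and position. Weak peaks of equal strength can thus differ widely in rank. In beta 1, peaks with a -log10 p of 3.7 and a fold enrichment of 2.7 ranked 33121 at Slc30a10, 41611 at Slc30a8, and 53034 at Slc30a3. Counts and covered lengths limited by rank depend in part on this order. GENCODE vM21 (GRCm38) gave gene bodies, starts, and exons. Peaks overlapping by at least 1 bp were merged. Libraries were grouped by label, each a sorted pool. Cell types were compared by exact permutation of the libraries, with Benjamini-Hochberg adjustment over all genes or regions. For pairs of cell types the smallest p is 0.1 or 0.333, so pairs were not tested. All 10 members are named, with their 5′ ends, every region open in 1 cell type and absent from another, and the 5 genes that follow Slc30a8 most closely, of which 1 is not reported here. Members and lists were chosen with earlier results of these data known. Python 3.11.15, numpy 2.4.6, pandas 2.3.3, matplotlib 3.10.9, and samtools 1.23.1 were used. Merging was tested against bedtools 2.31.1, and the permutation test on simulated data. The closing part gives the alternatives.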

Additional observations from a re-analysis of the deposited data

How the results depend on the processing

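The 6 members with a TSS peak in all 7 libraries numbered 6 or 7 under every alternative run. The count of members at an unadjusted p of at most 0.05 in TSS strength was 1, and it was 0 with ranks limited at 25000 and with beta compared with alpha and delta together, and between 0 and 1 with a library left out. For window counts it was 0, with 1177 of all 21938 genes at that p. It became 2 (Slc30a4 and Slc30a6) by covered length, with 3668 of all genes, or with peaks of a -log10 q of 2 and above, with 2159. It was 1 (Slc30a4) with a flank of 50 kb, with 1520 of all genes. It was 1 (Slc30a6) with beta compared with alpha and delta together, with 1062 of all genes. No gene passed after adjustment in any of these. With a replicate block, libraries were exchanged within replicate numbers, 0 members reached 0.05 in either test, and the smallest p possible was 0.0556. By the supplement's numbering, beta 1 and beta 2 differ in sex from the alpha and delta libraries of the same number. The block thus cannot stand for animals shared with beta libraries. Deviations from the cell type means correlated between -0.0306 and 0.0145 for libraries of the same replicate number and between -0.034 and 0.034 for others. With 2 libraries in alpha and in delta these deviations mirror each other, so the values cannot show whether libraries share animals. Without a beta library the smallest p was 0.0667, so those fits could not reach 0.05.

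Of the 45 regions, the count fell to 24 with peaks above that q and to 25 when each list was limited to 50000. The number open in beta was 22, and it was 12 with that q and 12 where a library had to cover 0.5 of the region. Regions open in beta and absent from alpha were 2, and 1 under each of these 3 settings. Regions open in beta and absent from delta were 4, and 1 with that q, 2 with 50000 peaks, and 2 with coverage. Regions open in delta and absent from alpha were 1, and 2 with coverage. With each library left out, a cell type left with 1 library was taken from that library. The regions called then numbered from 30 to 44, those open in alpha from 23 to 38, in beta from 12 to 22, and in delta from 19 to 21. Those open in alpha and absent from beta ranged from 1 to 7 and from delta from 4 to 17. Those open in beta and absent from alpha ranged from 0 to 4 and from delta from 0 to 5. Those open in delta and absent from alpha ranged from 0 to 3 and from beta from 2 to 3. The 30 regions are those without alpha 1, the 38 and the 17 those without alpha 2, and the lowest values for beta those without beta 1, where 32 regions were called.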
